A study of Mus musculus with 32 samples.

Results

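Lungs of mouse pups kept in hyperoxia until postnatal day 5.5 (P5.5) were compared with lungs of pups kept in hyperoxia until P3.5. The comparison used 8 of the 32 pups of the series, 4 at each age, taken by the treatment and age in their labels. The study's wild-type mice were C57Bl/6J. Pups were assigned at random on their day of birth, with litters balanced, to cages in normal air (normoxia) or raised oxygen (hyperoxia), so that a P5.5 pup differed from a P3.5 pup both in age and in the length of its exposure. Blood was flushed from the lungs with PBS, whole-lung total RNA was isolated, and 1 Cy3-labelled miRNA array was hybridised per pup. The same age step in 8 normoxia pups, 4 at each age, was set beside it. The question was which lung miRNAs changed between both ages under hyperoxia, and whether their change differed from that of normally developing lungs.

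MicroRNAs are short RNAs that bind partly matching sites in messenger RNAs and lower their translation and stability. A miRNA recognises its targets mainly through the seed, bases 2 to 8 from its 5′ end, so miRNAs that share a seed are grouped as a family. In the mouse lung these days fall in the phase when the walls that divide the air spaces into alveoli start to form, and raised oxygen in this period is used to model the arrested alveolar growth of bronchopulmonary dysplasia.

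Sequences of the miRNAs on which the results turned are given below 5′ to 3′, from RefSeq on GRCm38.p6, with the seed in capitals. The first set holds the miR-34 and miR-449 seed, shown because miR-34a-5p was the 1 miRNA whose age step was higher in hyperoxia than in normoxia by a test of that difference.
miR-34a-5p: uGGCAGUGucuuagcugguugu
miR-34b-5p: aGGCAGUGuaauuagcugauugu
miR-449a-5p: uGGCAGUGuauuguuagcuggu
The second set holds the miR-17 seed and the near seed of miR-18a-5p, shown because 4 of these fell in hyperoxia relative to normoxia.
miR-17-5p: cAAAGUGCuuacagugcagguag
miR-20a-5p: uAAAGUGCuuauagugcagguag
miR-20b-5p: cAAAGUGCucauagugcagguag
miR-93-5p: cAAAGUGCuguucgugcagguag
miR-106b-5p: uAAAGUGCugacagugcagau
miR-18a-5p: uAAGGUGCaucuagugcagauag
The third set holds the seed shared by miR-15b-5p and miR-16-5p, which were both lower at P5.5.
miR-15b-5p: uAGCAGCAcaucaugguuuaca
miR-16-5p: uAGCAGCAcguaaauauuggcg
The fourth set comes from imprinted loci and held large falls at P5.5, beside the rise of miR-494-3p. The miR-335 hairpin lies within Mest and gives both arms shown, and the miR-376 and miR-494 hairpins lie in the Dlk1-Dio3 region.
miR-335-5p: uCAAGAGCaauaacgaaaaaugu
miR-335-3p: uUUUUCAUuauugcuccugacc
miR-376a-3p: aUCGUAGAggaaaauccacgu
miR-376b-3p: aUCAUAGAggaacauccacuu
miR-494-3p: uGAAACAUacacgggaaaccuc
The last set holds those of the other large rises that were found in RefSeq by name.
miR-211-3p: gCAAGGACagcaaaggggggc
miR-125a-3p: aCAGGUGAgguucuugggagcc
miR-1198-5p: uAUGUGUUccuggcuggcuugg
miR-574-5p: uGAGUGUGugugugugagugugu
miR-222-3p: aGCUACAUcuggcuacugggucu
The mature miR-34a-5p lies at chr4:150068473-150068494 on the plus strand, miR-20a-5p at chr14:115044183-115044205 and miR-18a-5p at chr14:115043867-115043889, both on the plus strand. The mature miR-335-5p lies at chr6:30741314-30741336 and miR-376a-3p at chr12:109723824-109723844, again on the plus strand. Of the 300 miRNAs tested in hyperoxia, 230 had a RefSeq mature sequence under the same name.

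The P5.5 arrays were dimmer than the P3.5 arrays. The 75th percentile signal was 1290 to 1690 intensity units on the P3.5 hyperoxia arrays and 803 to 1290 on the P5.5 hyperoxia arrays, and 308 to 324 and 253 to 303 miRNAs were detected on them. Replicates correlated at 0.991 or more across miRNAs at P3.5 and at 0.984 or more at P5.5. The P3.5 hyperoxia arrays lay on 2 slides and the P5.5 hyperoxia arrays on 3 others, scanned on other days, so age and slide set cannot be told apart in the age step. The normoxia arrays of P3.5 lay on the same 2 slides, and those of P5.5 on 2 of the same 3. The 75th percentile signal was 1030 to 1300 on the P3.5 normoxia arrays and 513 to 942 on the P5.5 normoxia arrays. On these, 296 to 316 and 236 to 284 miRNAs were detected. In bulk lung RNA, fewer cells of a type and less RNA per cell cannot be told apart.

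Lung markers were present in both groups. The endothelial miR-126-3p lay at 12.52 to 12.88 log2 units at P3.5 and 12.54 to 12.75 at P5.5. The epithelial miR-200b-3p lay at 9.95 to 10.22 and 9.85 to 10.04. The neuronal miR-124-3p and miR-9-5p and the pancreatic miR-216a-5p, miR-216b-5p and miR-217-5p were not detected on any of the 8 arrays. The liver miRNA miR-122-5p was detected on 3 P3.5 arrays and on 0 P5.5 arrays.

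Levels below are log2 of the signal after scaling, and differences are P5.5 minus P3.5 in log2 units. Of 300 miRNAs tested, 175 (58.3%) differed between P5.5 and P3.5 in hyperoxia at an adjusted p under 0.05 in limma, 31 higher (10.3%) and 144 lower (48.0%), and 194 (64.7%) did at an unadjusted p under 0.05. The arrays of both ages did not overlap for 161 miRNAs (53.7%). Most changes were small, with 4 rises (1.33%) and 19 falls (6.33%) of at least 2-fold. The balance of rises and falls followed the scaling. For the 300 together, the median lay at -0.21, beside -0.25 with total gene signal, -0.08 after quantile normalization and 0.14 after normexp background correction. The share of calls that were rises was 17.7% as scaled here, 28.7% with the percentile taken over all probes, 35.8% after quantile normalization, 45.5% when each array was centred on its median, 54.8% after normexp and 62.5% in the series table. Differences are therefore also given relative to the median of -0.21 where it matters. Split by mean level, the median was -0.36 in the dimmest 100 miRNAs, -0.23 in the middle 100 and -0.15 in the brightest 100.

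miR-34a-5p, a target of p53 that restrains the cell cycle and promotes cell death, rose. Its levels were 9.21, 9.56, 9.33 and 9.23 on the P3.5 arrays and 10.87, 10.43, 10.22 and 10.59 on the P5.5 arrays. Every P5.5 array lay above every P3.5 array. The difference was 1.19 (SE 0.142, adjusted p = 0.00024, n = 4 and 4), a rise of 2.29-fold. It kept its call in each of the 23 alternatives that tested it, the series table not among them, with differences from 1.08 to 1.42. On normoxia arrays its levels were 8.67, 8.80, 8.90 and 8.88 at P3.5 and 8.83, 8.73, 8.78 and 8.90 at P5.5. The normoxia levels overlapped, with a difference of 0.00 (SE 0.0739).

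Other members of the family did not move with it. Of 10 miR-34 and miR-449 miRNAs on the array, 6 were tested, 1 rose, 2 fell and 3 did not pass. Of all miRNAs, 10.3% rose and 48.0% fell. miR-34b-5p was at 8.35 to 8.66 at P3.5 and 8.42 to 8.82 at P5.5, with a difference of 0.11 (SE 0.113, adjusted p = 0.394). miR-34c-5p differed by 0.05 (SE 0.115) and miR-34c-3p by 0.20 (SE 0.111), neither past the threshold. The arrays of both ages overlapped for these 3. miR-449a-5p, which is expressed in ciliated cells, overlapped too and differed by -0.47 (SE 0.155, adjusted p = 0.0309), a call that was lost when any of 5 single arrays was left out. miR-34b-3p differed by -0.57 (SE 0.116, adjusted p = 0.00309), was detected on 2 of 4 P5.5 arrays, and turned to 0.24 after normexp. After quantile normalization 2 of the 6 rose and 0 fell, and with median centring 4 rose and 1 fell. The step of all 6 was higher in hyperoxia than in normoxia, with a median of 0.28 beside -0.05 over all miRNAs, and 1 passed. Of all 303 miRNAs, 175 had a lower step in hyperoxia. The 4 arms of miR-34b and miR-34c lie in 1 cluster. The sign turned for miR-34b-3p after normexp, with total gene signal and with a higher floor, and for miR-34c-3p after normexp.

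miR-222-3p and miR-1198-5p also rose. miR-222-3p, which is made from the same X-linked transcript as miR-221 and represses the cell cycle inhibitor p27, was at 4.17, 4.42, 4.43 and 4.18 at P3.5 and at 4.96, 4.67, 4.90 and 4.88 at P5.5. No P5.5 array of miR-222-3p reached down to the P3.5 arrays, and the difference was 0.55 (SE 0.0936, adjusted p = 0.00123). In normoxia miR-222-3p differed by 0.26 (SE 0.18, adjusted p = 0.286). miR-1198-5p was at 3.81, 3.67, 4.05 and 4.33 at P3.5 and at 4.72, 4.52, 4.79 and 4.76 at P5.5. The groups did not overlap, and the difference of miR-1198-5p was 0.73 (SE 0.141) in hyperoxia beside 1.28 (SE 0.212) in normoxia.

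The remaining large rises had 1 or 2 P5.5 arrays well above the others. miR-3470a was at 6.57, 6.30, 6.54 and 6.43 at P3.5 and at 8.72, 7.50, 7.02 and 7.46 at P5.5. All P5.5 arrays were higher, with replicate 21 highest, and the difference was 1.21 (SE 0.32, adjusted p = 0.0122). miR-574-5p was at 5.97 to 6.25 at P3.5 and at 7.25, 7.01, 6.39 and 6.38 at P5.5. Its sequence, a near repeat of G and U (91.3% of its bases), is printed above. Replicates 21 and 22 stood above the other pair, and the difference of miR-574-5p was 0.63 (SE 0.202, adjusted p = 0.0294). miR-211-3p (0.95), miR-466i-5p (0.94), miR-1196-5p (0.83), miR-125a-3p (0.74) and miR-466h-3p (0.54) rose with SEs of 0.152 to 0.308.

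Replicate 21 was the highest P5.5 array for 20 of the 31 rises. Without it 18 rises were called, and without P3.5 replicate 13, 14 or 16 there were 16, 17 and 17. In normoxia, miR-3470a (0.76), miR-466i-5p (0.81), miR-125a-3p (0.70) and miR-574-5p (0.52) rose too. The calls of miR-211-3p, miR-125a-3p and miR-574-5p were lost when single arrays were left out, with adjusted p up to 0.0723, 0.112 and 0.074, and that of miR-466h-3p only without replicate 14 (adjusted p = 0.0504).

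**Figure D1:**
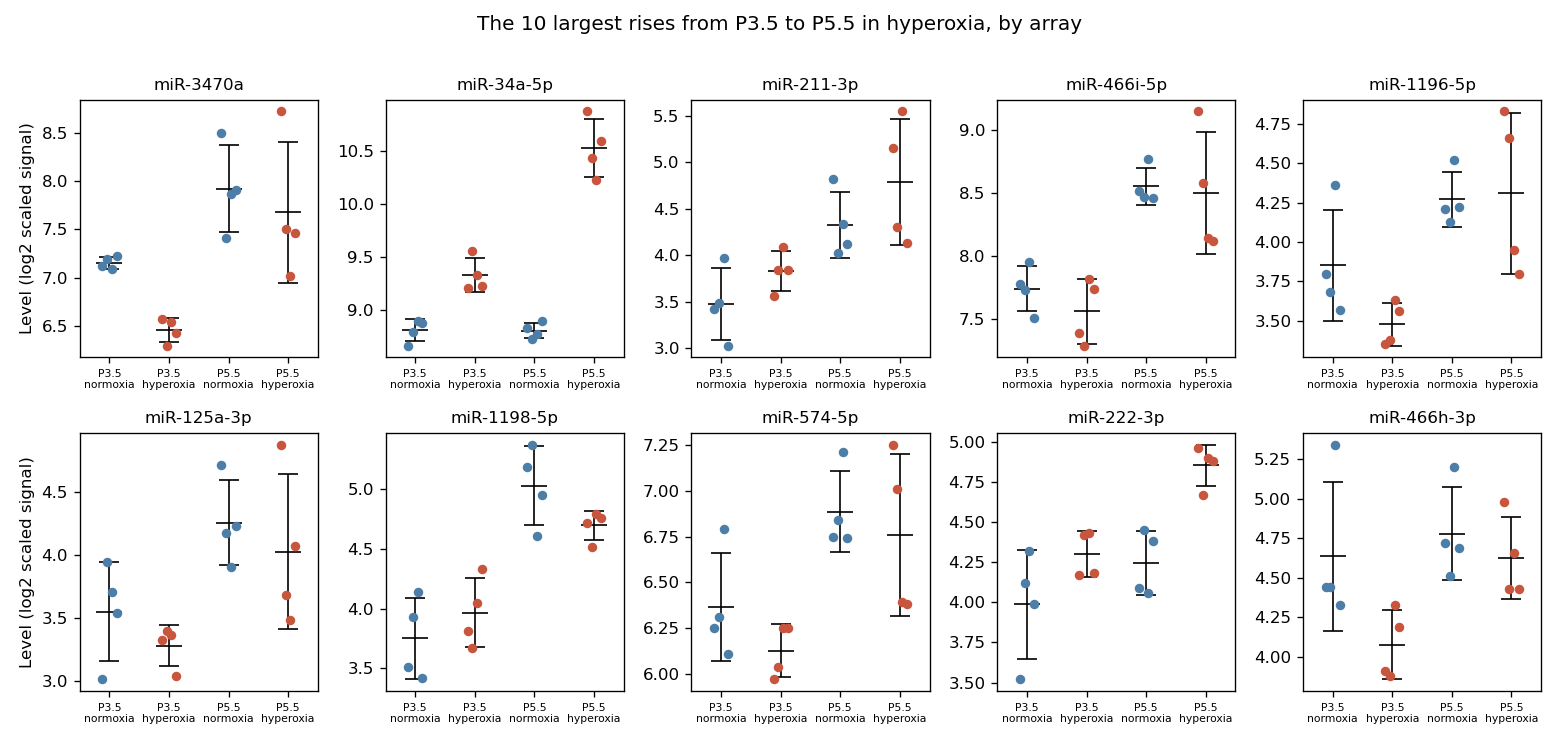
Levels (log2 scaled signal) of the 10 largest rises on the arrays of 4 groups, with 4 arrays per group as points and bars for mean and SD. miR-34a-5p stands at 10.22 to 10.87 in P5.5 hyperoxia and at or under 9.56 elsewhere, whereas miR-3470a and miR-466i-5p are also higher at P5.5 in normoxia.

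The striated muscle miRNAs miR-1a-3p and miR-133a-3p showed the largest falls among miRNAs detected on all 8 arrays. miR-1a-3p, the most abundant miRNA of heart and skeletal muscle, was at 7.13, 8.74, 7.54 and 8.14 at P3.5 and at 6.49, 6.46, 5.64 and 6.23 at P5.5. The groups did not overlap, although the P3.5 arrays spread widely. The difference of miR-1a-3p was -1.68 (SE 0.349, adjusted p = 0.00361), a fall of 3.21-fold, and its call was lost in 1 of 23 alternatives (adjusted p = 0.141). miR-133a-3p and miR-133b-3p, which regulate muscle growth and differentiation, differed by -1.27 (SE 0.364) and -1.19 (SE 0.358). Both calls were lost without P3.5 replicate 14 or 16 (adjusted p up to 0.0506 for miR-133a-3p and 0.0607 for miR-133b-3p).

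All 4 muscle miRNAs tested, of 13 on the array, were lower, beside 48.0% of all miRNAs. Their median was -1.23 beside -0.21 over all miRNAs. Of the 4, 2 were lower after quantile normalization (median -1.05) and 1 after normexp (median -0.55, beside 0.14). miR-208b-3p, from a cardiac myosin gene, differed by -0.44 and was detected on 2 of 4 P5.5 arrays. Their summed signal was 299 to 885 intensity units at P3.5 and 127 to 236 at P5.5. miR-206-3p, miR-208a-3p and miR-499-5p, which also mark striated muscle, were detected on none of the 8 arrays. In normoxia 0 of the 4 passed the threshold in limma, and on those arrays the summed signal ran from 203 to 3400 at P3.5 and from 226 to 608 at P5.5. The part of heart or other muscle tissue in the samples was not tested.

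miR-335, which is made from an intron of the imprinted gene Mest, fell on both arms. miR-335-5p was at 9.18, 9.07, 8.80 and 9.19 at P3.5 and at 7.70, 7.65, 8.10 and 7.83 at P5.5. No arrays overlapped, and the difference was -1.24 (SE 0.124, adjusted p = 0.000125). Its call held in all 24 alternatives. miR-335-3p was at 4.84, 4.82, 4.93 and 4.77 at P3.5 and at 1.76, 2.88, 2.96 and 2.85 at P5.5, where it was detected on 1 array. The measured difference was -2.23, with the level under the array limit, the lowest signal of any probe above background, on all 4 P5.5 arrays. In normoxia miR-335-5p differed by -0.81 (SE 0.0778) and miR-335-3p by -0.72 (SE 0.216).

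miR-135b-5p, miR-450a-5p and miR-301b-3p fell alongside. miR-135b-5p was at 6.23, 5.76, 6.17 and 6.27 at P3.5 and at 4.97, 4.69, 5.18 and 4.83 at P5.5, and miR-450a-5p was at 7.19, 7.22, 7.21 and 7.17 and then at 6.09, 6.25, 6.43 and 6.39. Neither had overlapping arrays, and the differences were -1.19 (SE 0.141) for miR-135b-5p and -0.91 (SE 0.0813) for miR-450a-5p. Both also fell in normoxia (adjusted p = 0.00216 for each). miR-301b-3p, of the miR-130 and miR-301 family, differed by -0.99 (SE 0.124). It was detected on all 8 arrays, but at P5.5 its level lay under the array limit on all 4, and the difference was 0.18 after normexp.

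**Figure D2:**
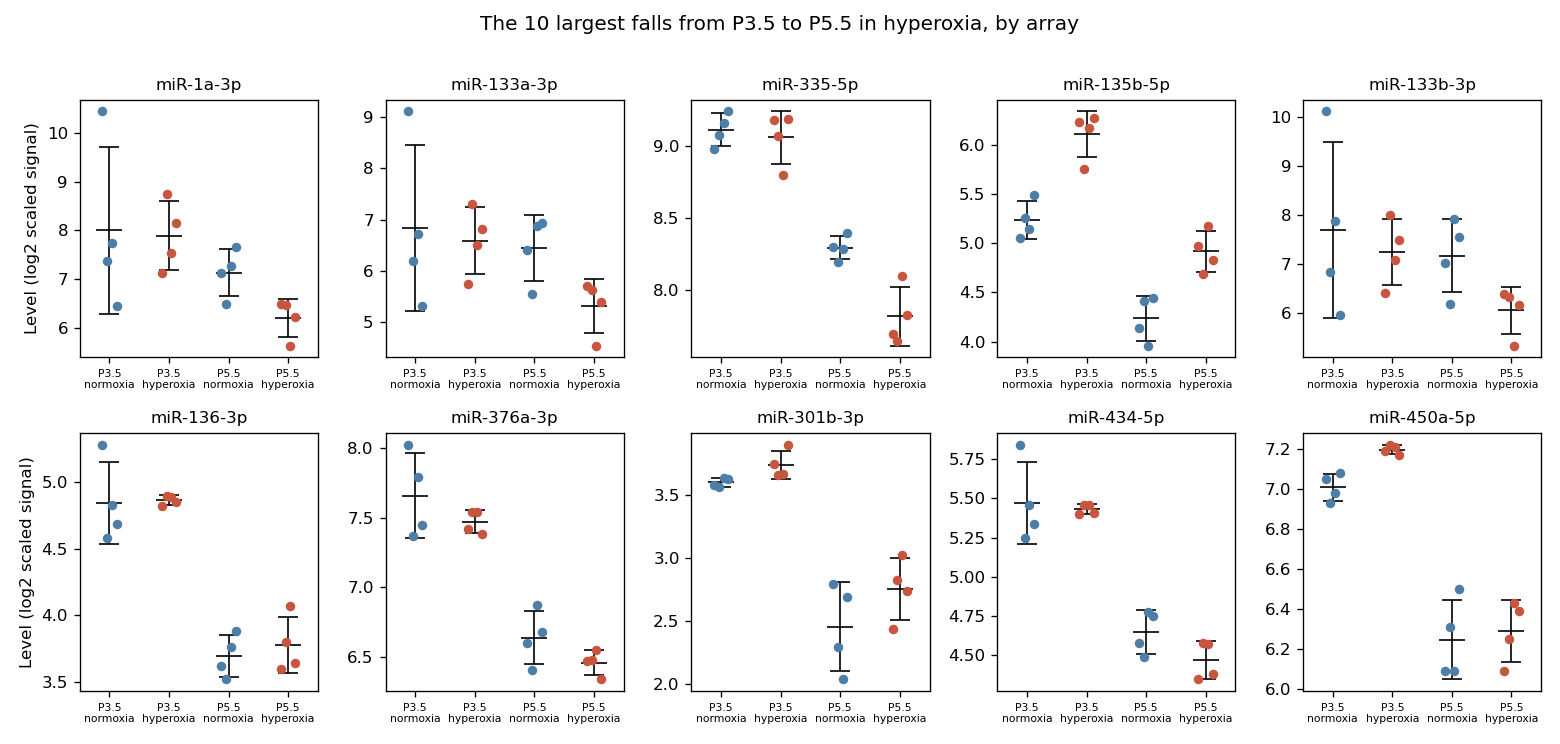
Levels (log2 scaled signal) of the 10 largest falls among miRNAs detected on all 8 hyperoxia arrays, with 4 arrays per group as points and bars for mean and SD. The P5.5 hyperoxia arrays lie below the P3.5 hyperoxia arrays in each panel, and most falls are also present in normoxia, where the muscle miRNAs spread most.

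The miRNAs of the Dlk1-Dio3 region fell together. This imprinted region of chromosome 12 holds a large miRNA cluster that is expressed from the maternal copy, mainly before birth. Of its 93 miRNAs on the array 38 were tested, of which 37 fell and 1 rose, beside 48.0% lower and 10.3% higher of all miRNAs. Their median was -0.68, or -0.47 relative to all miRNAs. All 38 were detected on each P3.5 hyperoxia array, but only 25 on each P5.5 hyperoxia array. The others entered the test through the P3.5 arrays alone, and the P5.5 arrays were dimmer. Of all 300 miRNAs tested, 248 were detected on every array of both ages. In mm9 positions of the probes, all 9 tested between chr12:110824031-110833597 fell, with a median of -0.63, and 28 of 29 fell between chr12:110947281-110981994. The falls ran from -0.28 to -1.57.

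miR-376a-3p was at 7.42, 7.54, 7.54 and 7.38 at P3.5 and at 6.47, 6.48, 6.55 and 6.34 at P5.5. Both groups were tight and did not overlap, and the difference was -1.01 (SE 0.0687, adjusted p = 2.29e-05). miR-127-3p, which is antisense to the imprinted gene Rtl1, was at 8.22 to 8.38 and then at 7.55 to 7.76, with a difference of -0.63 (SE 0.0727). miR-411-3p was at 4.62 to 4.69 and then at 3.13 to 3.39, with a difference of -1.37. It was detected on 3 of 4 P5.5 arrays, and its level lay under the array limit on 3. The groups of neither overlapped. miR-136-3p (-1.09) and miR-434-5p (-0.96) were further large falls.

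Of all miRNAs, 13 (4.33%) were detected on each P3.5 array, on 0 P5.5 arrays, and fell. The 3 brightest of these were Dlk1-Dio3 miRNAs. miR-380-3p (at least 1.37-fold lower), miR-376b-3p (at least 1.36-fold) and miR-154-3p (at least 1.25-fold) were at 3.77 to 4.29 at P3.5 and at 2.33 to 3.13 at P5.5. All 3 entered the test through the P3.5 arrays alone. The array limit was 2.83 to 3.32 on the P3.5 arrays and higher, 3.35 to 4.01, on the P5.5 arrays. After normexp the differences of these 3 became 0.14, 0.12 and 0.16, none past the threshold.

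miR-494-3p went the other way from the rest of the region. It was at 6.91, 7.90, 6.53 and 6.54 at P3.5 and at 9.54, 8.18, 7.18 and 8.31 at P5.5. The arrays overlapped, since P3.5 replicate 14 exceeded P5.5 replicate 23. The difference was 1.33 (SE 0.5, adjusted p = 0.048), and the call was lost without any of 6 single arrays (adjusted p 0.0752 to 0.117).

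In normoxia 23 of 36 Dlk1-Dio3 miRNAs tested fell, beside 27.2% of all miRNAs, with a median of -0.73. For 0 of 38 did the step differ between exposures in limma, also at an unadjusted p under 0.05. The fall depended on how background was treated. After normexp correction 5 of the 38 were lower, with a median of 0.10 beside 0.14 over all miRNAs. A level above 4.52, the highest limit of the 16 arrays of both exposures, was held by 15 members on all 8 arrays. Of these 15, 14 fell as scaled here and 5 after normexp, with medians of -0.58 and -0.15. After quantile normalization 31 of the 38 fell.

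Of the miR-17 clusters, which drive proliferation in the embryonic lung and elsewhere, 13 of 23 miRNAs were tested, of which 10 fell and 0 rose. Of all miRNAs, 48.0% fell. The median of the 13 was -0.47, or -0.25 relative to all miRNAs, and 8 of the 13 lay below the median of all. After quantile normalization 5 fell, and after normexp 3. miR-18a-5p was at 6.60, 6.57, 6.47 and 6.58 at P3.5 and at 6.16, 6.06, 6.15 and 5.99 at P5.5. The groups did not overlap, with a difference of -0.47 (SE 0.0633, adjusted p = 0.00044). miR-20b-5p (-0.48, SE 0.0605) and miR-19b-3p (-0.52, SE 0.0842) fell by a similar amount.

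The 5 miRNAs tested with the seed AAAGUGC were all called lower, beside 48.0% of all miRNAs, with a median of -0.25 close to the -0.21 of all. miR-20a-5p was at 8.94, 8.97, 8.76 and 8.99 at P3.5 and at 8.74, 8.70, 8.71 and 8.70 at P5.5, a difference of -0.20 (SE 0.0642). miR-93-5p, from the cluster inside the replication gene Mcm7, was at 7.16 to 7.35 and then at 6.99 to 7.11, a difference of -0.19 (SE 0.0617). Both calls were lost without any of 6 single arrays, and both differences became positive (0.03 and 0.04) when arrays were centred on their medians. miR-106b-5p differed by -0.25 (SE 0.0739), and miR-17-5p, detected on 1 of 4 P5.5 arrays, by -1.26 (SE 0.277), which turned to 0.22 after normexp. Near-identical members of this group, such as miR-20a-5p and miR-20b-5p, are uncertain because their probes may bind both.

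miR-15, miR-16 and their relatives in the X-linked miR-322 and miR-503 cluster, which restrain cyclins, fell as well. Of 20 on the array 13 were tested, of which 9 fell and 0 rose, with a median of -0.37, or -0.15 relative to all miRNAs, of which 48.0% fell, while 5 fell and 1 rose after quantile normalization. miR-322-5p was at 11.55, 11.68, 11.50 and 11.65 at P3.5 and at 10.75, 10.97, 10.91 and 11.04 at P5.5. The groups did not overlap, and the difference of miR-322-5p was -0.68 (SE 0.0793, adjusted p = 0.00023). miR-15b-5p (-0.36) and miR-16-5p (-0.39) fell less. miR-503-5p differed by -0.37 (SE 0.11), a call lost without any of 4 single arrays (adjusted p up to 0.0627). Of the tested miRNAs found in RefSeq by name, 4 had the seed AGCAGCA, among them miR-15b-5p and miR-16-5p, and these 4 fell. miR-195-5p (0.13) and miR-497-5p (0.08) of the same list did not pass.

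The let-7 and miR-30 families were split. Of 10 let-7 miRNAs tested, let-7b-5p rose by 0.37 (SE 0.111, adjusted p = 0.0216, or 0.0537 without P5.5 replicate 24), 2 fell, among them miR-98-5p with -0.39, and 7 did not pass. Of all miRNAs, 10.3% rose and 48.0% fell. After quantile normalization 4 rose and 1 fell. In the miR-30 family 7 of 9 fell and 1 rose, but its median of -0.30 lay only -0.08 from that of all miRNAs, of which 48.0% fell. miR-30d-5p was at 9.82 to 9.92 and then at 10.01 to 10.10, whereas its cluster neighbour miR-30b-5p was at 10.03 to 10.11 and then at 9.28 to 9.66. The arrays of neither overlapped, and the differences were 0.19 (SE 0.0528, a call lost without P3.5 replicate 13) and -0.56 (SE 0.0846). After quantile normalization 2 of 9 fell and 1 rose.

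Of the injury and inflammation miRNAs, 1 of 7 rose and 1 fell, beside 10.3% higher and 48.0% lower of all miRNAs. miR-146a-5p, which is induced by NF-κB and damps its signalling, was at 7.82, 7.65, 7.76 and 7.69 at P3.5 and at 7.15, 7.15, 7.27 and 7.19 at P5.5. It did not overlap and differed by -0.54 (SE 0.0613, adjusted p = 0.000223). miR-31-5p was at 4.87 to 5.26 and then at 5.31 to 5.49, a difference of 0.41 (SE 0.0937). miR-21-5p, which rises in many injured tissues, was at 12.22 to 12.40 and then at 13.05, 12.51, 12.32 and 12.38. Replicates 21 and 22 stood above the P3.5 range and the others within it, and the difference of 0.26 (SE 0.153, adjusted p = 0.178) did not pass.

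Markers of cell types differed as follows. The endothelial miR-126 hairpin, hosted by Egfl7, split by arm. miR-126-5p was at 7.32 to 7.48 at P3.5 and at 6.10 to 6.78 at P5.5. The groups did not overlap, with a difference of -0.90 (SE 0.135, adjusted p = 0.000632), while miR-126-3p differed by -0.12 (SE 0.0976) and did not pass. The smooth muscle miR-143-3p and miR-145-5p both fell, with a median of -0.43, and miR-145-5p became 0.01 after normexp. Fibroblast and mesenchymal miRNAs fell in 6 of 7 cases, with a median of -0.44, or -0.22 relative to all miRNAs, of which 48.0% fell, among them miR-199a-5p (-0.58, SE 0.0798) and miR-10b-5p (-0.81, SE 0.0715). After quantile normalization 4 of these 7 fell, and after normexp 2, with a median of -0.19.

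Blood markers moved in both directions, while the epithelial markers called were all lower. The red cell miR-451 was at 11.07, 9.80, 11.14 and 10.62 at P3.5 and at 10.64, 11.34, 10.92 and 10.74 at P5.5. Its groups overlapped, and the difference was 0.25 (SE 0.3, adjusted p = 0.474). miR-3107-5p, which shares its mature sequence with the red cell miR-486, rose by 0.98 (SE 0.222, adjusted p = 0.0058). It was detected on 3 of 4 P3.5 hyperoxia arrays and on all 4 P5.5 ones, so it entered the test through the latter alone. Its hyperoxia mean was 4.30 on P2.5 arrays, 3.22 on P3.5 arrays and 4.20 on P5.5 arrays. The normoxia mean of miR-3107-5p was 4.67 for P3.5 pups and also 4.67 for P5.5 pups. Of the 4 red cell miRNAs tested 1 rose, beside 10.3% of all miRNAs, and their summed signal was 957 to 2430 at P3.5 and 1720 to 2780 at P5.5. Relative to normoxia the step of 3 of the 4 was higher at an unadjusted p under 0.05 and that of 0 at an adjusted p. Of all miRNAs, 19.5% had an unadjusted p under 0.05 in either direction. The lymphocyte miR-150-5p fell by 0.74 (SE 0.0866), and the neutrophil miR-223-3p differed by -0.42 (SE 0.147, adjusted p = 0.0383), a call lost without any of 6 single arrays. Of the 6 white cell miRNAs tested only these 2 were called, beside 58.3% of all miRNAs, and the median was -0.17 beside -0.21 over all. In the miR-200 family 2 of 7 fell, among them miR-200a-3p (-0.23), beside 48.0% of all miRNAs. The squamous epithelial miR-205-5p (-0.79, detected on 2 of 4 P5.5 arrays) and miR-203-3p (-0.50) also fell, and they became 0.15 and 0.13 after normexp correction. Of the 6 epithelial miRNAs tested outside the miR-200 family 3 fell and 3 did not pass, with a median of -0.21, that of all miRNAs.

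**Figure D3:**
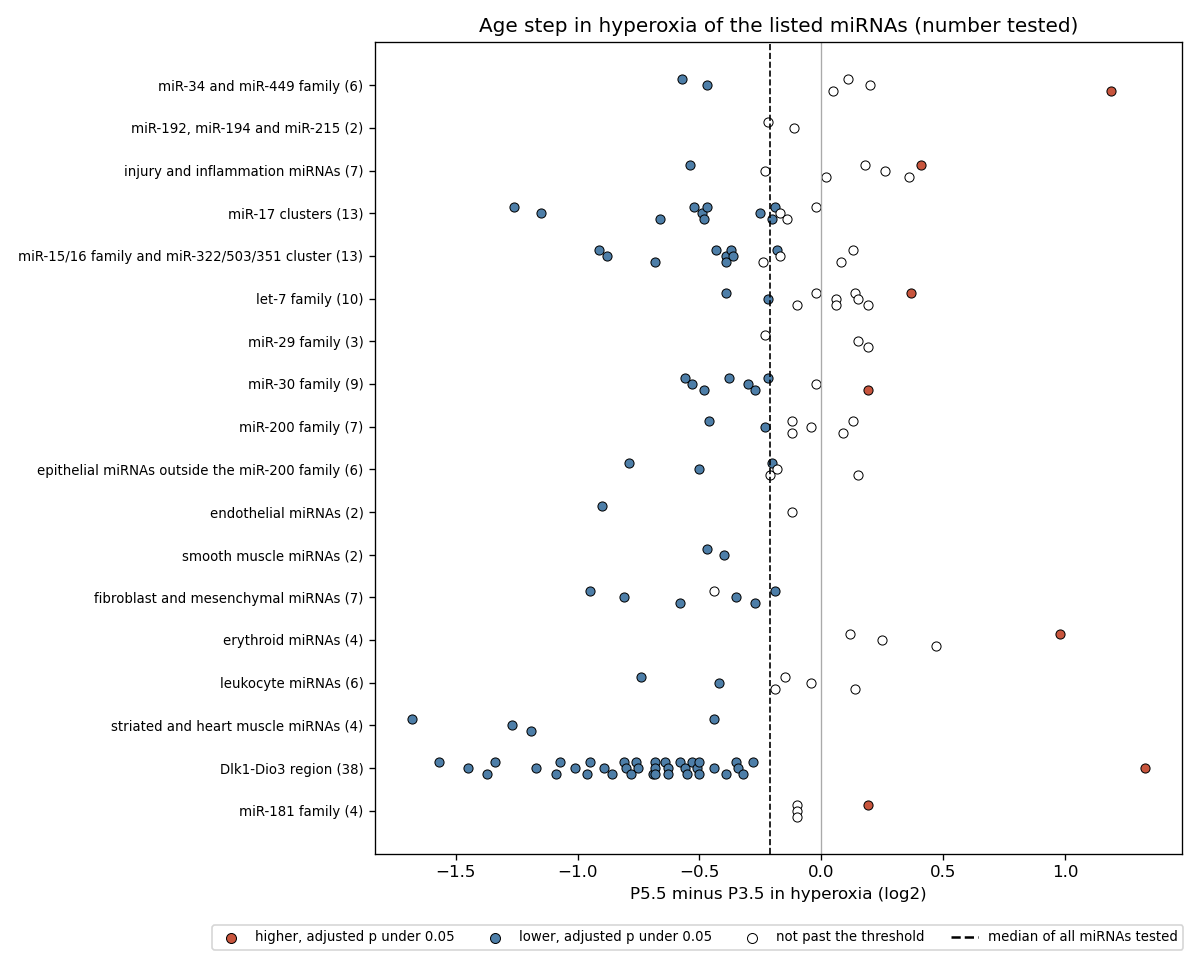
Difference between P5.5 and P3.5 in hyperoxia (log2) of each tested miRNA by list, coloured by call, with the median of all miRNAs (-0.21) dashed. The Dlk1-Dio3 and muscle miRNAs lie left of it, except miR-494-3p at 1.33, and miR-34a-5p at 1.19 stands apart from the rest of its family.

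In normoxia, 106 of 290 miRNAs tested (36.6%) differed between the same ages, 27 higher (9.31%) and 79 lower (27.2%). The P5.5 normoxia arrays included the dimmest of the 16 arrays. The median SE was 0.119 in normoxia and 0.0956 in hyperoxia, so the counts of both exposures do not come from equally sensitive tests. After normexp 131 of 146 normoxia calls were rises. Of 287 miRNAs tested in both exposures, 230 changed in the same direction and 90 were called in both, which was 53.6% of the 168 hyperoxia calls among them and 84.9% of the 106 normoxia calls. Of these 90, 76 fell in both, 12 rose in both and 2 went opposite ways. Across miRNAs, which are not independent replicates, the hyperoxia and normoxia steps correlated with r = 0.81, and both rest on the same sets of slides.

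The age step itself differed between hyperoxia and normoxia for 11 of 303 miRNAs (3.63%), 1 (0.330%) with a higher and 10 (3.30%) with a lower step in hyperoxia, and for 59 (19.5%) at an unadjusted p under 0.05. Arrays of both exposures were spread over the same slides except P5.5 hyperoxia replicate 23, so a shift between slide sets largely cancels in this contrast. A difference in brightness between exposures at the same age does not cancel. With slide as a fixed block 19 were called, among them the same 11. For miR-34a-5p the difference between steps was 1.19 (SE 0.166, adjusted p = 0.00139), and it passed in all 31 alternatives that tested it, the series table not among them. The hyperoxia level exceeded the normoxia level by 0.52 at P3.5 and by 1.71 at P5.5.

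The 10 lower steps included 4 of the 13 miR-17 cluster miRNAs. For miR-18a-5p the normoxia arrays were at 6.59, 6.56, 6.58 and 6.73 at P3.5 and at 6.66, 6.62, 6.66 and 6.63 at P5.5. They overlapped, while the hyperoxia arrays fell apart by age, and the difference between steps was -0.49 (SE 0.0819, adjusted p = 0.00467). For miR-20a-5p the normoxia arrays were at 8.97, 8.96, 8.94 and 9.09 at P3.5 and at 9.16, 9.18, 9.17 and 9.18 at P5.5. These rose without overlap, opposite to hyperoxia, and the steps differed by -0.39 (SE 0.08, adjusted p = 0.0159). miR-93-5p also rose in normoxia (0.24) and fell in hyperoxia, with steps that differed by -0.43 (SE 0.0838), and those of miR-20b-5p differed by -0.36 (SE 0.0808). All 13 members had a lower step in hyperoxia, with a median of -0.34 beside -0.05 over all 303 miRNAs, of which 175 had a lower step. Some of the 13 are arms of the same hairpin or near-identical, so they are not independent.

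miR-497-5p, a relative of miR-15 and miR-16, was at 9.05, 9.11, 9.00 and 9.13 at P3.5 and at 9.12, 9.13, 9.09 and 9.27 at P5.5 in hyperoxia. In normoxia it was at 9.00, 9.01, 8.96 and 9.06 and then at 9.59, 9.60, 9.38 and 9.49. Only the normoxia groups separated, and the steps differed by -0.43 (SE 0.0883, adjusted p = 0.0159). All 13 tested members of that list had a lower step in hyperoxia, with a median of -0.28 beside -0.05 over all 303 miRNAs, of which 175 had a lower step, but only miR-497-5p passed. miR-342-3p (-0.31) and miR-151-5p (-0.30) likewise rose in normoxia and did not pass in hyperoxia. miR-30a-3p (-0.51), miR-3096b-3p (-0.37) and miR-335-3p (-1.50) completed the set. At P5.5 in hyperoxia miR-335-3p was detected on 1 array and lay under the array limit on all 4, so the size of its step difference is uncertain. Its call held in 15 of 30 alternatives, with differences from -3.19 to -0.37.

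The call of miR-34a-5p held under each scaling and omission in which it was tested, while the 10 lower steps depended on the scaling. With the 75th percentile over all probes, with normexp, with total gene signal, with all 32 arrays in 1 fit and with median centring, miR-34a-5p was the 1 call left. The count was 5 without P3.5 hyperoxia replicate 13, without replicate 16 or without P5.5 normoxia replicate 20, and 25 without P3.5 hyperoxia replicate 15. Of the 10 lower steps, those of miR-18a-5p, miR-93-5p, miR-497-5p and miR-20a-5p passed in 16 of 16 single omissions, and those of the other 6 in 4 to 13. The miR-17 cluster median stayed between -0.39 and -0.26 over 24 alternatives, and between -0.34 and -0.11 relative to all miRNAs.

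**Figure D4:**
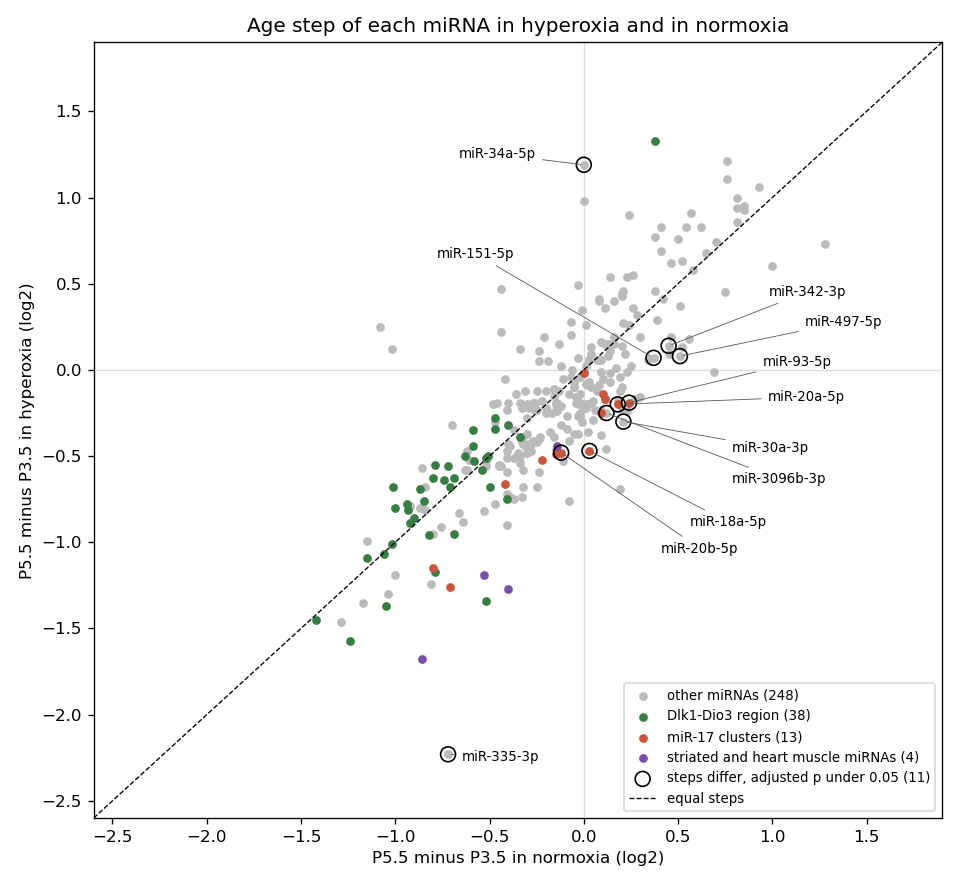
Difference between P5.5 and P3.5 in hyperoxia (y axis, log2) against that in normoxia (x axis, log2) for 303 miRNAs, with lists in colour, rings around the 11 whose steps differed, and equal steps dashed. miR-34a-5p lies at 1.19 in hyperoxia and 0.00 in normoxia, and the Dlk1-Dio3 miRNAs follow the line.

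Seen over all 4 ages, miR-34a-5p in hyperoxia stood at 8.97 ± 0.06 (SD, n = 4) on P2.5 arrays and 9.33 ± 0.16 on P3.5 arrays. It reached 10.53 ± 0.27 at P5.5 and 10.75 ± 0.23 at P14.5. Of its 3 steps between neighbouring ages that from P3.5 to P5.5 was the largest, and the P5.5 and P14.5 ranges (10.22 to 10.87 and 10.41 to 10.89) overlapped. In normoxia miR-34a-5p was at 8.86 ± 0.06, 8.81 ± 0.10, 8.81 ± 0.07 and 8.52 ± 0.13. miR-20a-5p in hyperoxia was at 9.02 ± 0.12, 8.91 ± 0.10, 8.71 ± 0.02 and 7.72 ± 0.86, with a wide spread at P14.5. On P14.5 hyperoxia replicates 29 and 31 and P14.5 normoxia replicate 28, the spike-in control for labelling was out of range. They had 206, 165 and 223 miRNAs detected. The levels over age are a description.

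**Figure D5:**
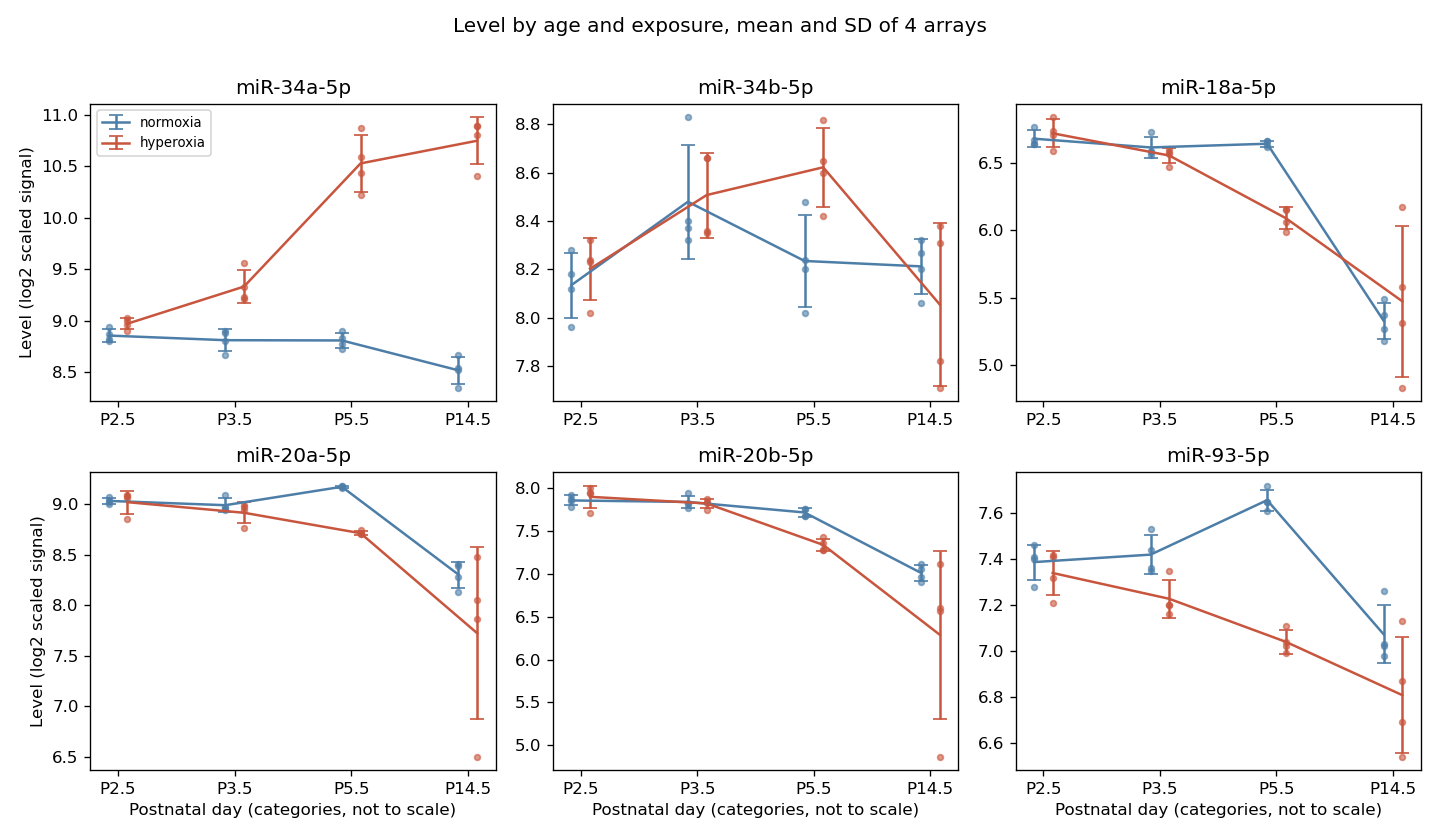
Levels (log2 scaled signal) against age in postnatal days (4 ages from P2.5 to P14.5) in normoxia and hyperoxia, with arrays as points and mean and SD of 4 as lines and bars. In hyperoxia miR-34a-5p goes from 9.33 at P3.5 to 10.53 at P5.5 and miR-18a-5p from 6.55 to 6.09, while normoxia means stay at 8.81 and at 6.62 and 6.64 over these ages.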

How the data were processed

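MiRNA levels were measured in whole-lung RNA on Agilent mouse miRNA arrays with miRBase 17 names. Per the labels, each of 32 pups gave 1 array and a group held 4,. The deposited scanner files, made by the authors with Agilent Feature Extraction 10.7.3.1, hold linear intensity per spot after background subtraction and, per the file headers, other values that flag spots above background or outlying. A deposited series table holds log2 signals per miRNA and was used as an alternative. How the authors made it is not given in the sources used here. Of its columns, 0 belong to no sample. Probe positions are on mm9.

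Signals of an array were multiplied by 1 factor, the median of the 75th percentiles of all 32 arrays over its own, with percentiles taken from the 205 probes above background on every array. Probes of a miRNA (at most 4) were averaged, signals under 2.3 were raised to that floor, and log2 was taken. A miRNA was tested if detected (a probe well above background) on all 4 arrays of at least 1 group. limma 3.58.1 in R 4.3.3 (package data.table, version 1.17.8) gave two-sided tests with Benjamini-Hochberg adjustment over all miRNAs tested at 0.05, and the script was tested on simulated data. Figures were drawn with matplotlib 3.10.9 in Python 3.11.15. The array limit is the lowest scaled signal of a probe above background, so a detected miRNA, averaged over its probes, can lie under it. Where no array of a group detected a miRNA, a fall is given as "at least", with the dim arrays set to the higher of that limit and their own signal. The number of arrays limits the precision, and since nothing ties a pup to its litter or cage, p-values measure the spread between these samples.

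The members, lists and tests were chosen with earlier results of these data known. Named are the 10 largest rises and falls among non-overlapping called miRNAs detected on all 8 arrays, the 3 brightest detected in 1 age only, the 5 smallest p in each direction of the difference between steps, miR-34a, miR-34b and miR-34c, and list members. Any other miRNA named was chosen after its values were seen. Lists are described by counts and medians without a set test. Alternatives were other scalings, background corrections (normexp with offset 50), probe summaries and floors, the series table, detection filters, slide as a block, a fit of all 32 arrays, array weights, the methods' t-test (Welch's, with Benjamini-Hochberg adjustment) and leaving out each array.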

Additional observations from a re-analysis of the deposited data

Results flagged for a closer look

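Over 134 groups of 4 arrays (67 named miRNAs at both ages in hyperoxia), 7 had 1 array far from the other 3, where chance gives about 1 in 20. At P3.5, miR-34b-3p was at 3.37 on replicate 13 with the others at 3.67 to 3.71, miR-223-3p was at 8.70 on replicate 14 with the others at 9.23 to 9.32, and replicate 15 was low for both miR-30a-3p (7.05, others 7.17 to 7.19) and miR-98-5p (7.37, others 7.65 to 7.69). At P5.5, replicate 21 was low for miR-150-5p (4.47, others 4.76 to 4.79) and miR-335-3p (1.76, others 2.85 to 2.96), and replicate 24 for miR-3107-5p (3.90, others 4.28 to 4.33).

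The age step differed between exposures by a test of the difference itself for 11 miRNAs. The step in hyperoxia minus that in normoxia was 1.19 for miR-34a-5p, -0.49 for miR-18a-5p, -0.43 for miR-93-5p and for miR-497-5p, -0.39 for miR-20a-5p, -0.36 for miR-20b-5p, -0.51 for miR-30a-3p, -0.31 for miR-342-3p, -1.50 for miR-335-3p, -0.37 for miR-3096b-3p and -0.30 for miR-151-5p. The level of miR-335-3p lay under the array limit at P5.5 in hyperoxia.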

How the results depend on the processing

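No paired analysis was possible because the groups compared share no replicate numbers. For P5.5 versus P3.5 in hyperoxia (175 calls), the count was 62 after normexp, 32 with the series table (98 miRNAs) and 75 with all 32 arrays in 1 fit. It was 101 over miRNAs above the highest limit of the 16 arrays on every array (180 tested, chosen after the data had been seen). It was 134 to 178 when single arrays were left out and 122 to 186 in the other settings, among them the methods' t-test with 145. For the same step in normoxia (106 calls), it was 69 with the 75th percentile over all probes, 26 with the series table, 54 without a detection filter, 60 with all 32 arrays, 64 by the methods' t-test, 61 over miRNAs above the limit, and 69 to 101 without single arrays.

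For the difference between steps (11 calls), the count was 1 with the 75th percentile over all probes, after normexp, with total gene signal, with all 32 arrays and with median centring, which was also added after the data had been seen. It was 4 with the percentile over probes above background on the 16 arrays and after quantile normalization, 18 with a higher floor, 0 with the series table (limma, 12 at an unadjusted p under 0.05), 19 with slide as a fixed block and 37 with array weights. Without single arrays it was 5 to 25, and without P5.5 normoxia replicate 17 the normoxia count was 69.

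Of 1526 values of named miRNAs in hyperoxia under alternatives, 1284 kept direction and side of the threshold and 18 changed sign. After normexp, the signs turned for miR-136-3p (0.00), miR-301b-3p (0.18), miR-380-3p (0.14), miR-376b-3p (0.12), miR-154-3p (0.16), miR-34b-3p (0.24), miR-17-5p (0.22), miR-145-5p (0.01), miR-205-5p (0.15), miR-203-3p (0.13) and miR-208b-3p (0.21). With median centring they turned for miR-93-5p (0.04), miR-20a-5p (0.03), miR-126-3p (0.11) and miR-200a-3p (0.00). Leaving out replicate 13 or 22 turned miR-34c-5p (-0.01 and -0.04, within a range of -0.04 to 0.13 over single omissions), and leaving out replicate 14 turned miR-451 (-0.03, range -0.03 to 0.42). In the difference between steps, miR-34b-3p became -0.22 after normexp, -0.09 with total gene signal and -0.18 with a higher floor, and miR-34c-3p became -0.17 after normexp. The cause was not tested.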
